A study of Mus musculus with 15 samples.

Results

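The Fc gamma receptors of the mouse and the chain through which most of them signal were followed across 15 single-colour arrays of myeloid cells, in 5 groups of 3 arrays. The genes were the 3 activating receptors Fcgr1, Fcgr3 and Fcgr4, the inhibitory receptor Fcgr2b and the signalling chain Fcer1g. These 5 genes, of 22180 with a probe set of a single gene, were taken as a family by name, and each has 1 such probe set. All 5 were among the 14822 genes that passed a filter on dim probe sets. The signals of 4 lay above the 40th percentile of their array on all 15 arrays, and Fcgr4 did so on the 12 arrays outside 1 group.

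All mice carry the strain label C57Bl/6. The GFW group holds spleen cells of mice given G-CSF, sorted as CD11b+CD34+ after removal of cells positive for CD4, CD8, Ly6G, B220 or Ter119. The RB group has the same labels as GFW and differs only in the code of its array titles. The GFK group holds cells sorted in the same way from G-CSF-treated mice labelled iNOS knockout. The GFE group holds wild-type sorted cells of this kind grown in StemSpan medium with Flt3 ligand and SCF, for 3 days by the study's design, from G-CSF-treated mice. The MDSC group holds Ly6C+CD11b+ myeloid-derived suppressor cells, grown from C57Bl/6 marrow with G-CSF, GM-CSF and IL-13. The GFW, GFK and GFE titles share a prefix, while RB and MDSC titles each have their own, so that prefix and group cannot be told apart there. G-CSF was given to the mice of 4 groups and added to the culture of the fifth. The sources used here give no ages, doses or knockout allele, and do not say whether animals were pooled. Nothing says that replicates were separate animals or cultures, so each p rests on a spread that may be technical only.

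Fc gamma receptors bind the constant part of IgG and let myeloid cells take up and respond to antibody-coated particles. The activating receptors carry no signalling motif of their own in the mouse and pair with the FcR gamma chain, encoded by Fcer1g, whose ITAM tyrosines recruit the kinase Syk. Fcgr2b carries an ITIM in its tail, which recruits the phosphatase SHIP-1 and dampens signals from the activating receptors. In mice, interferon gamma is known to raise Fcgr1 and Fcgr4, and C5a to raise activating over inhibitory receptors on macrophages.

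Values are log2 RMA signals, so a difference of 1 is a change of 2-fold, and the levels of different genes are not compared with each other. Array medians lay between 5.52 and 5.72 log2. Itgam, which encodes CD11b, ranked on average between percentile 78.2 and 99.1 of probe sets in the 5 groups. Cd34 was highest after culture (11.28 ± 0.03, SD, n = 3) and lowest on the RB arrays (5.92 ± 0.11). Ly6g, the target of a depleting antibody in the sort, stood at 12.19 ± 0.03 on GFW and 12.08 ± 0.05 on GFK arrays, and at 6.28 ± 0.10 on RB arrays. Nos2, which encodes iNOS, was 8.84, 8.91 and 8.92 on the arrays labelled knockout and 8.09, 8.32 and 8.43 on the GFW arrays. Which part of the gene its probe set reads is not known here. Since Nos2 was not lower there, these are called the arrays labelled knockout throughout.

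The promoters of the 4 receptors are shown because Fcgr1 and Fcgr2b both had their highest mean on the RB arrays and Fcgr3 and Fcgr4 both highest on the GFW and knockout-labelled arrays. Each is the 250 bases before the start annotated by RefSeq on GRCm38.p6, written 5′ to 3′ on the gene's own strand. Capitals mark matches, on either strand, to the interferon gamma-activated site TTCNNNGAA or to the PU.1 core GAGGAA, which is TTCCTC on the opposite strand.
Fcgr1, chr3:96293970-96294219, strand -: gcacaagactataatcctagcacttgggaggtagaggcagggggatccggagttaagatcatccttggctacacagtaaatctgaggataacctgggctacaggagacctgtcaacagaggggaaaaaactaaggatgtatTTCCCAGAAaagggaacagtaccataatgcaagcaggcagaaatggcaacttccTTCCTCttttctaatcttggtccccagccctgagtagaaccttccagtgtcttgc
Fcgr2b, chr1:170976072-170976321, strand -: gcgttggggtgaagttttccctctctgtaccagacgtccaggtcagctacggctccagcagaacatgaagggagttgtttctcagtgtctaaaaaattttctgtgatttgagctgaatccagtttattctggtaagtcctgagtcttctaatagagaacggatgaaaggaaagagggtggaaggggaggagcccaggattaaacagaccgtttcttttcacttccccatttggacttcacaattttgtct
Fcgr3, chr1:171059404-171059653, strand -: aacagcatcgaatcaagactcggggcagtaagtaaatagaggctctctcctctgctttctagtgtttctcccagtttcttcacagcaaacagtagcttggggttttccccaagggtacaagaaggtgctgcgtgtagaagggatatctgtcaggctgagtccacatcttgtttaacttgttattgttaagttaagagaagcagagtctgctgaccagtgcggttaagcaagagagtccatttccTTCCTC
Fcgr4, chr1:171018676-171018925, strand +: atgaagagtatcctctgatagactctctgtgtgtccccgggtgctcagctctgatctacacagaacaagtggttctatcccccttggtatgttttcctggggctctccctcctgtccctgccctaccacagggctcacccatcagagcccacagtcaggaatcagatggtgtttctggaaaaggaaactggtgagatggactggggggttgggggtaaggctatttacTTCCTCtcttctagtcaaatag
The Fcgr1 promoter held 1 interferon gamma-activated site, TTCCCAGAA, beginning 109 bases before the start, and the PU.1 core beginning 55 bases before it. Fcgr4 held the PU.1 core beginning 22 bases before the start and Fcgr3 beginning 6 bases before it. A second start listed for Fcgr3, also within the gene, puts the same core 15 bases before it. No match to these motifs was found in the windows of Fcgr2b and Fcer1g, and none of the 5 genes matched the C/EBP motif TTNNGNAAT. Of 32851 promoter windows of the same length, 7.02% held the interferon gamma-activated site, 23.3% the PU.1 core and 10.2% the C/EBP motif.

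Fcgr1 encodes CD64, the receptor that binds monomeric IgG with high affinity and is known as a mark of monocytes and macrophages. Its signal was 10.17, 10.25 and 10.42 on the RB arrays, 8.47, 8.49 and 8.54 on the MDSC arrays and 7.39, 7.52 and 7.36 on the arrays labelled knockout. The GFW arrays gave 7.38, 7.14 and 7.03, and the cultured cells 6.64, 6.56 and 6.41. The RB arrays stood above all others, the MDSC arrays came next, and only GFW and knockout-labelled arrays overlapped. RB exceeded GFW by 3.09 log2 (SE 0.11, 8.52-fold, limma adjusted p = 8.24e-12), which ranked 43 from the top of 14822 genes. In the order RB, MDSC, knockout-labelled, GFW and cultured, GFW and knockout-labelled arrays were the neighbours that did not differ by the test (0.24 log2, adjusted p = 0.429).

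Fcgr3 encodes CD16, a low-affinity receptor for immune complexes that macrophages, neutrophils and NK cells carry in mice. Its signal was 11.10, 11.18 and 11.20 on the GFW arrays and 11.20, 11.17 and 11.21 on the arrays labelled knockout. The RB arrays gave 10.45, 10.63 and 10.54, the MDSC arrays 10.43, 10.41 and 10.60, and the cultured cells 7.04, 7.03 and 6.97. The cultured arrays stood far below the other 12, and RB and MDSC arrays overlapped. Cultured cells fell 17.7-fold below GFW (-4.15 log2, SE 0.09, limma adjusted p = 7.18e-15). From the top, GFW followed knockout-labelled arrays without a called difference (0.03 log2, adjusted p = 0.943), RB lay below GFW (0.62, 4.71e-05), and MDSC was not called below RB (0.06, 0.639).

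Fcgr4 encodes FcγRIV, which binds IgG2a and IgG2b with intermediate affinity and is known on mouse neutrophils, macrophages and patrolling monocytes. Its signal was 11.24, 11.28 and 11.33 on the arrays labelled knockout and 11.01, 10.97 and 11.14 on the GFW arrays. The RB arrays gave 8.96, 9.62 and 8.67, the MDSC arrays 8.09, 8.01 and 8.08, and the cultured cells 4.89, 5.24 and 5.19. No 2 groups overlapped, and the RB arrays were spread the widest (SD 0.49), with replicate 2 the highest of them. The cultured mean ranked at percentile 34.2 of probe sets, near background, so GFW exceeded it at least 61.2-fold (5.94 log2, SE 0.18, limma adjusted p = 2.04e-13). Fcgr4 ranked 37 from the bottom of 14822 genes in this comparison. Each group differed from the next in order (adjusted p of 1.62e-04 or less) except knockout-labelled from GFW (0.24 log2, adjusted p = 0.669).

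Fcgr2b encodes CD32B, the inhibitory receptor, which in mice is carried by myeloid cells and by B cells. Its signal was 9.11, 9.51 and 9.54 on the RB arrays and 9.01, 9.02 and 9.11 on the MDSC arrays. Arrays labelled knockout gave 7.48, 7.96 and 7.90, cultured cells 7.50, 7.55 and 7.45, and GFW arrays 7.53, 7.69 and 7.23. RB and MDSC arrays formed a high set that did not overlap the other 3 groups. RB exceeded GFW 3.75-fold (1.91 log2, SE 0.15, limma adjusted p = 5.02e-08) and MDSC exceeded GFW 2.96-fold (1.56 log2, SE 0.15, adjusted p = 2.06e-07). Within each set no neighbour was called: RB against MDSC gave 0.34 log2 (adjusted p = 0.0741), knockout-labelled against cultured 0.28 (0.113) and cultured against GFW 0.02 (0.91).

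Fcer1g, the shared chain, ranked on average between percentile 99.3 and 99.9 of probe sets in every group. Its signal was 12.82, 12.88 and 12.82 on the GFW arrays, 12.79, 12.81 and 12.83 on the arrays labelled knockout, 12.66, 12.66 and 12.58 on the RB arrays, and 12.56, 12.61 and 12.53 on the MDSC arrays. Cultured cells gave 11.70, 11.61 and 11.74, below every other array. The fall from GFW to cultured cells was 2.23-fold (-1.15 log2, SE 0.09, limma adjusted p = 8.45e-09). Among the other 4 groups no neighbours in the order of means were called, with adjusted p between 0.0955 and 0.949.

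**Figure D1:**
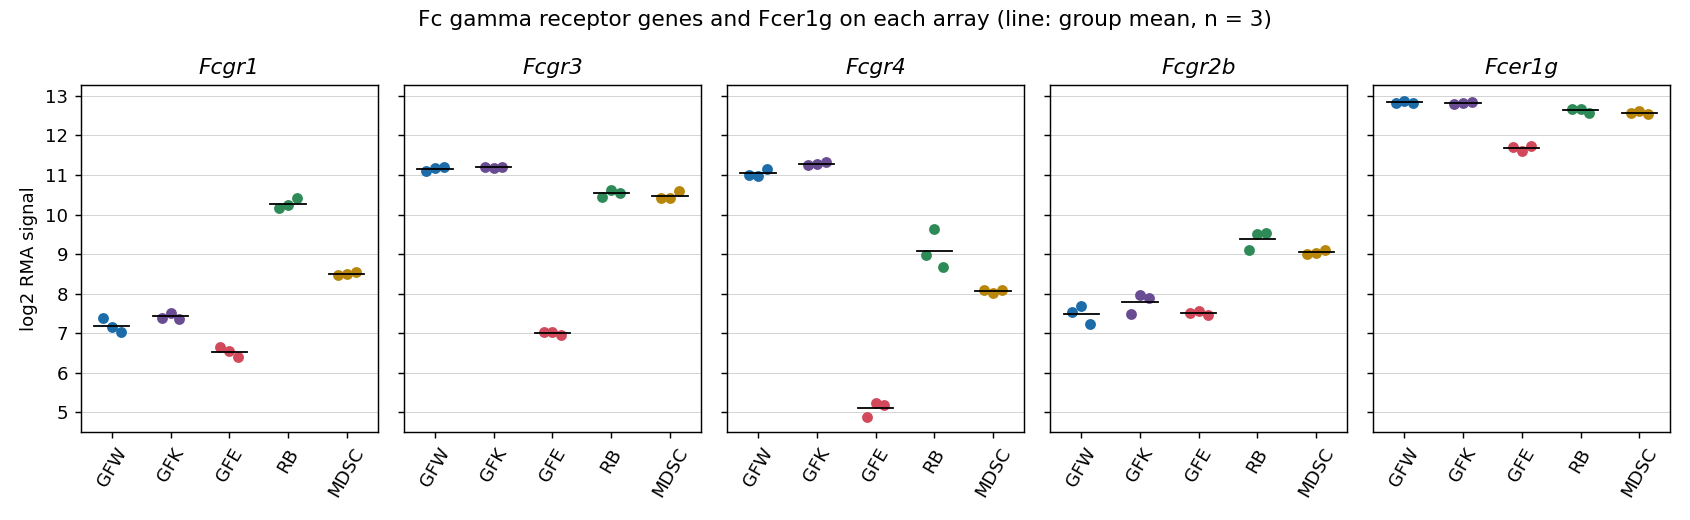
Log2 RMA signal of the 5 genes (vertical axis) on each array, by group (horizontal axis), with points for the 3 arrays and a line for the group mean. Fcgr1 and Fcgr2b have their highest mean on the RB arrays, Fcgr3 and Fcgr4 are highest on the GFW and knockout-labelled arrays (GFW and GFK), and Fcgr4 after culture (GFE) lies between 4.89 and 5.24.

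The comparisons were RB, MDSC, cultured and knockout-labelled arrays against GFW, and MDSC against RB. They share arrays and are not independent. The cells were measured in bulk, so fewer cells of a type that carries a receptor and less RNA per cell cannot be told apart.

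The cells grown with Flt3 ligand and SCF were compared with the GFW arrays, as the study set cultured cells against sorted input cells. The activating receptors Fcgr4 (-5.94 log2, a bound), Fcgr3 (-4.15) and Fcgr1 (-0.65) and the chain Fcer1g (-1.15) fell. Fcgr2b was not called (0.02 log2, 95% interval -0.30 to 0.34). In limma's test 4 of the 5 genes were thus lower, where 67% of all genes tested were called, 35.1% being higher and 31.9% lower. Their median difference was -1.15 log2, against -0.06 over all genes. Of all genes 5198 were higher and 4733 lower, and 5783 and 3286 with each array minus its median, which moved the median of all genes from -0.06 to 0.07. Under that scaling Fcgr1 differed by -0.51, Fcgr3 by -4.01, Fcgr4 by -5.80, Fcer1g by -1.02 and Fcgr2b by 0.16. Tested against a 1.5-fold difference, the Fcgr1 call was lost (adjusted p = 0.716).

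Markers of other cell states moved beside these genes. The summed linear signal of 10 neutrophil markers was 43984 to 45494.5 on the GFW and 732 to 799 on the cultured arrays, with all 10 lower. That of 8 progenitor markers was 3305 to 3603 and 10022 to 10287, with 7 higher and 1, Kit, lower (-0.58 log2). Ly6g, Retnlg and Camp were under the 40th percentile after culture. The 8 classical monocyte markers summed to 5964 to 6700 on GFW and 932 to 1059 on cultured arrays (2 of 8 higher, 5 lower). Of them, F13a1 and Vcan were under the 40th percentile after culture and Fn1 and Vcan on GFW arrays. The 7 NK cell markers, of cells that also carry Fcgr3, summed to 580 to 690 on GFW arrays and 174 to 203 after culture, where all 7 were under the 40th percentile. Patrolling monocyte markers summed to 3635 to 3808 on GFW and 2602 to 2710 on cultured arrays (3 of 8 higher, 3 lower), and tissue macrophage markers to 2694 to 2981 and 1510 to 1589 (2 of 11 tested higher, 9 lower). B cell markers summed to 569.6 to 597.5 and 604 to 742 (1 of 6 tested higher, 5 lower), and plasma cell markers to 657 to 907 and 326 to 350 (3 of 5 tested lower).

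Mast cells and basophils also use Fcer1g. Their 8 markers summed to 288 to 399 on GFW, 338 to 444 on knockout-labelled, 261 to 279 on RB, 599 to 616.5 on cultured and 549.5 to 604 on MDSC arrays. Fcer1a, Ms4a2, Tpsb2 and Cma1 were under the 40th percentile in all 5 groups. Of the 4 tested, Mcpt8 (1.88 log2) and Cpa3 (1.83, a bound) were higher in MDSC than in GFW, and Gata2, also a progenitor marker, was lower (-0.295). After culture Gata2 was higher (2.42) and Prss34 lower (-0.752). T cell markers summed to 156 to 665, dendritic cell markers to 897.5 to 1499 and megakaryocyte markers to 257 to 587 over the 15 arrays. The part of these lists in the receptor differences was not tested.

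The RB and GFW arrays carry the same sample labels, so their comparison sets side by side 2 sets of arrays of 1 labelled population. Fcgr1 (3.09 log2) and Fcgr2b (1.91) were higher in RB, and Fcgr4 fell by 1.96 (SE 0.18, 3.88-fold) and Fcgr3 by 0.62 (SE 0.09, 1.54-fold). Fcer1g was not called (-0.20, SE 0.09, limma adjusted p = 0.0577), although its arrays did not overlap. In all 2 genes were higher and 2 lower, where 52.4% of all genes were called, 25.8% higher and 26.5% lower. The median over the 5 genes was -0.20 log2, against -0.06 over all genes. Tested against a 1.5-fold difference, the Fcgr3 call was lost (adjusted p = 1).

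The 8 classical monocyte markers summed to 29205 to 32493 on RB against 5964 to 6700 on GFW arrays, and all 8 were called higher in RB. Of the 8 patrolling monocyte markers 7 were called higher, with sums of 10849 to 12392 on RB and 3635 to 3808 on GFW arrays. The neutrophil markers summed to 10040 to 11145 on RB and 43984 to 45494.5 on GFW arrays, with 8 of 10 lower and 1 higher. Progenitor markers summed to 407 to 466 on RB and 3305 to 3603 on GFW arrays, with 7 of 8 lower, Kit by -5.92 log2. Plasma cell markers summed to 270 to 340 on RB and 657 to 907 on GFW arrays (4 of 5 tested lower), and NK cell markers to 318 to 515 and 580 to 690 (1 of 3 tested lower). Tissue macrophage markers summed to 3610 to 4615 on RB and 2694 to 2981 on GFW arrays (4 of 11 tested higher, 4 lower). For Fcgr2b, which B cells also carry, the 7 B cell markers summed to 397 to 485 on RB and 569.6 to 597.5 on GFW arrays. Of these, 5 of 6 tested were lower, Cd79a, Ms4a1, Ebf1, Blk and Fcrla were under the 40th percentile on RB arrays, and Cd79b (percentile 78.0) and Pax5 (49.3) were above it. The part of these lists in the differences was not tested, and the title code cannot be told apart from the set of cells.

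The MDSC arrays were compared with GFW and RB, since the study set these cells against the sorted populations. Against GFW, Fcgr2b (1.56 log2) and Fcgr1 (1.31 log2, SE 0.11, 2.49-fold) were higher. Fcgr4 fell by 2.98 (SE 0.18, 7.89-fold), Fcgr3 by 0.68 (SE 0.09) and Fcer1g by 0.27 (SE 0.09, limma adjusted p = 0.0126). All 5 genes were called, 2 higher and 3 lower, where 62.2% of all genes were called, 32.3% higher and 30% lower. The median over the 5 genes was -0.27 log2, against -0.08 over all genes. Of all genes 4781 were higher and 4444 lower, and 5306 and 3094 with each array minus its median, which moved the median of all genes from -0.08 to 0.04. The Fcer1g call was lost under that scaling (adjusted p = 0.179), and the calls of Fcer1g (1) and Fcgr3 (0.496) were lost when tested against a 1.5-fold difference.

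Against RB, Fcgr1 (-1.78 log2, SE 0.11, 3.43-fold) and Fcgr4 (-1.02 log2, SE 0.18, 2.03-fold, limma adjusted p = 1.62e-04) were lower in MDSC. That is 2 of 5 genes, where 48.1% of all genes were called, 27.4% higher and 20.7% lower. The median over the 5 genes was -0.34 log2, against 0.04 over all genes. Fcgr3 (95% interval -0.26 to 0.14), Fcer1g (-0.25 to 0.12) and Fcgr2b (-0.66 to -0.02) were not called over all genes. The Fcgr2b difference was called without RB replicate 1 (-0.48 log2, adjusted p = 0.018) and after a second quantile normalisation (-0.45, 0.0267). The Fcgr4 call was lost against a 1.5-fold difference (0.074).

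Marker lists were read in both MDSC comparisons. Neutrophil markers summed to 20563 to 21897 on MDSC arrays (3 of 10 higher and 6 lower than GFW, 6 higher and 3 lower than RB). Classical monocyte markers summed to 14249 to 14523 (4 of 8 higher and 2 lower than GFW, 5 lower than RB), with Ms4a4c under the 40th percentile. Patrolling monocyte markers summed to 2731 to 2980 against 10849 to 12392 on RB arrays (2 of 8 higher, 6 lower, median -2.66). Against GFW 3 of them were higher and 3 lower. Progenitor markers summed to 1504 to 1672 (2 of 8 higher and 3 lower than GFW, 6 higher and 1 lower than RB). NK cell markers summed to 191 to 196, with all 7 under the 40th percentile (3 of 3 tested lower than GFW, 2 lower than RB). B cell markers summed to 328 to 343 (6 of 6 tested lower than GFW, 1 lower than RB), with Cd79b at percentile 65.9, Pax5 at 52.1 and the other 5 under the 40th. Plasma cell markers summed to 274.5 to 297 (3 of 5 tested lower than GFW, 1 lower than RB). Tissue macrophage markers summed to 3742 to 3922 (1 of 11 tested higher and 7 lower than GFW, 1 higher and 8 lower than RB). The 1 higher was Mrc1 in both (3.595 and 4.385 log2), at percentile 98.5 on MDSC arrays. The part of these lists in the receptor differences was not tested.

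On the arrays labelled knockout none of the 5 genes was called against GFW by limma, and 0 of 5 had an unadjusted p under 0.05. Of all genes 1.61% were called by adjusted p, 1.3% higher and 0.317% lower, and the share by unadjusted p was not counted. The differences were 0.30 for Fcgr2b (95% interval -0.02 to 0.62), 0.24 for Fcgr4 (-0.14 to 0.62), 0.24 for Fcgr1 (-0.0019 to 0.48), 0.03 for Fcgr3 (-0.17 to 0.23) and -0.03 for Fcer1g (-0.21 to 0.16). The median over the 5 was 0.24 log2, against -0.01 over all genes. The 3 Fcgr4 signals labelled knockout lay above the 3 GFW signals, and the other 4 genes overlapped. Of splits of 3 against 3 arrays 10% have no overlap, and the share of all genes without overlap was not counted. Within the 9 arrays that share a title prefix, the adjusted p was between 0.428 and 0.945. Patrolling monocyte markers summed to 5726 to 6167 on these arrays against 3635 to 3808 on GFW, with 4 of 8 called higher, and plasma cell markers to 1465 to 1565 against 657 to 907, with 5 of 5 tested higher. B cell markers summed to 785 to 844 against 569.6 to 597.5, with 1 of 6 tested higher, Cd79a (1.58 log2). Tissue macrophage markers summed to 3541 to 4597 against 2694 to 2981, with 3 of 11 called higher. Neutrophil markers summed to 42902 to 44275, classical monocyte markers to 5965.5 to 6249, NK cell markers to 422 to 508 and progenitor markers to 3136 to 3437, with 1 call among them, Hlf, a progenitor gene (0.50, adjusted p = 0.0431), and the part of these lists in the differences was not tested.

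The remaining pairs of groups, which reuse the same arrays, served to order the levels. Against cultured cells all 5 genes were called in MDSC, where 35.5% of all genes were called, and 4 of 5 in knockout-labelled arrays, against 65.8%. Cultured cells against RB gave 5 of 5 calls, against 54.1%. Knockout-labelled arrays against RB gave 4 of 5, against 50.5%, and MDSC against knockout-labelled arrays 5 of 5, against 60.9%.

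**Figure D2:**
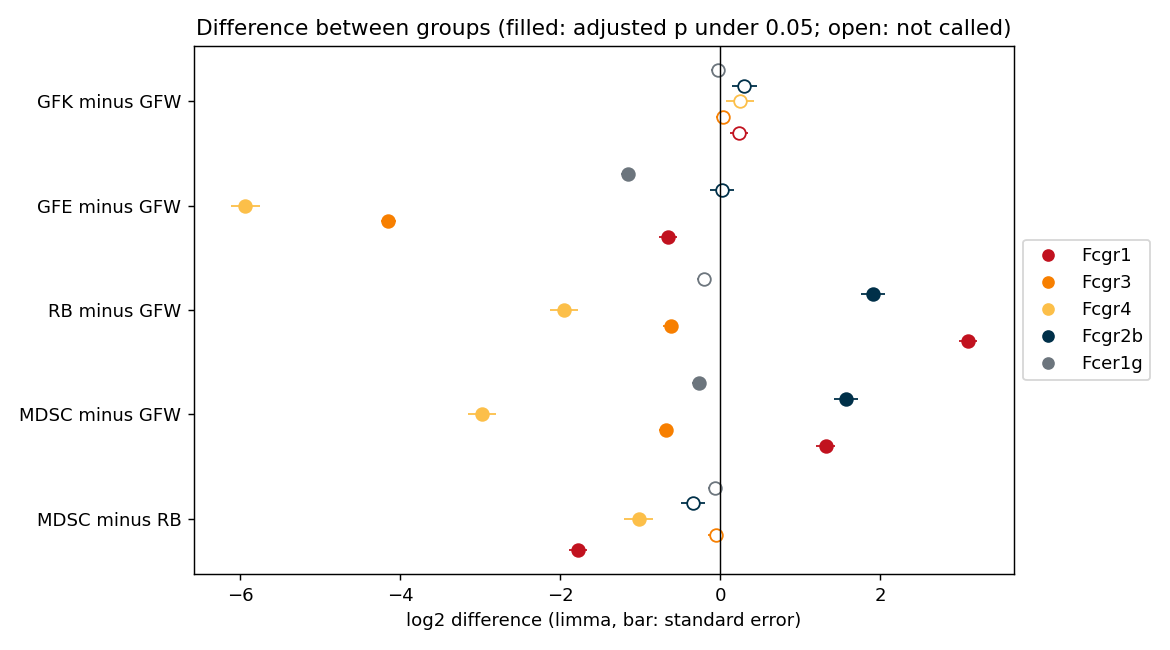
Log2 difference (horizontal axis) of the 5 genes in each of the 5 comparisons (vertical axis), with bars for limma's standard error and filled points at an adjusted p under 0.05. In RB and MDSC minus GFW, Fcgr1 and Fcgr2b lie to the right of 0 and Fcgr3 and Fcgr4 to the left, and no point is filled in GFK minus GFW.

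Changes of the activating receptors and of Fcgr2b were unequal in the cultured, RB and MDSC groups. Each activating receptor's difference from GFW was set against that of Fcgr2b on the same arrays, as a description with no test. After culture the shift relative to Fcgr2b was -5.96 log2 for Fcgr4, a bound, -4.17 for Fcgr3 and -0.67 for Fcgr1. In RB it was -3.86 for Fcgr4, -2.53 for Fcgr3 and 1.18 for Fcgr1, or 2.27-fold toward Fcgr1. In MDSC it was -4.54 for Fcgr4 and -2.24 for Fcgr3, and the Fcgr1 shift of -0.25 overlapped the GFW arrays. The other shifts named here did not overlap between groups, and how often shifts of other gene pairs do so was not counted. On the arrays labelled knockout the shifts of all 3, between -0.27 and -0.06, overlapped GFW.

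Fcgr2b and Fcgr3 are near-identical in their extracellular parts, and their probe sequences were not used here, so shared hybridisation was not tested. Between GFW and cultured arrays the Fcgr3 signal differed by 4.15 log2 and that of Fcgr2b by 0.02.

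**Figure D3:**
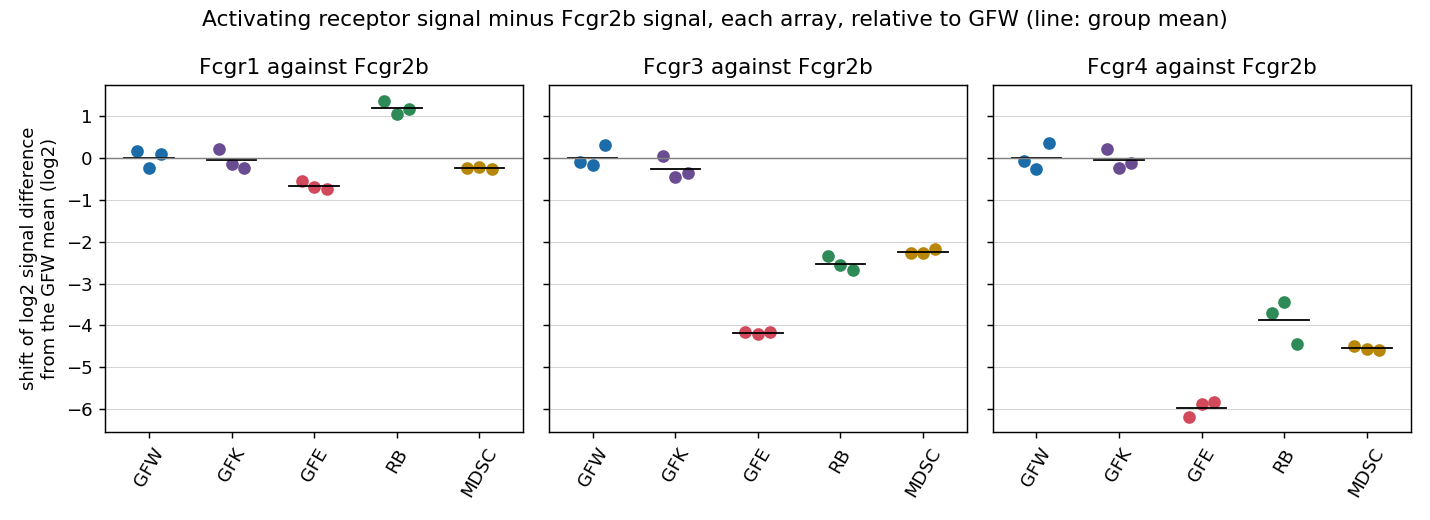
Signal of each activating receptor minus that of Fcgr2b on each array, as the shift from the GFW mean in log2 (vertical axis), by group (horizontal axis), with points for arrays and a line for the group mean. Fcgr3 and Fcgr4 shift below 0 on all cultured (GFE), RB and MDSC arrays, and Fcgr1 shifts above 0 on the RB arrays (1.03 to 1.36).

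Other genes of the pathway were read from 6 lists. Of 19 genes for adaptors such as Tyrobp and Hcst, and for receptors that pair with Fcer1g or other adaptors, 10 were tested. After culture 9 were lower and none higher (median -1.90), led by Trem1 (-5.55 log2), an amplifier of inflammatory signals, and the C-type lectins Clec4e (-3.31), a receptor for mycobacterial glycolipid, and Clec4n (-2.18), known as Dectin-2. In RB minus GFW 7 were lower, led by Clec4d (-3.15), Trem1 (-1.78) and Clec4n (-1.67), and 1 was higher, the lipid-sensing receptor Trem2 (3.22). In MDSC minus GFW Trem2 (2.71) and Clec5a (1.14) were higher and 7 genes lower. In MDSC minus RB 3 were higher, led by Clec5a (2.66), and 5 lower. Tyrobp, the DAP12 adaptor that carries an ITAM as Fcer1g does, stood at 13.08 on GFW arrays and fell by 1.95 log2 after culture (limma adjusted p = 1.43e-11), by 0.32 in RB and by 0.54 in MDSC. On the arrays labelled knockout 1 of 10 was called, Clec4n (0.61, adjusted p = 0.0315).

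Of 26 kinases and effectors downstream of Fc receptors, 23 were tested. After culture 17 were lower and 5 higher (median -0.56, against -0.06 over all genes). The Src-family kinase Fgr (-5.03 log2) and the phosphoinositide 3-kinase subunits Pik3r5 (-2.22) and Pik3cd (-1.72) fell, and the Src-family kinase Fyn (2.13), the adaptor Lat2 (1.13) and the B cell adaptor Blnk were higher. Syk, the kinase that binds the ITAM, fell by 1.41 after culture and by 1.33 in MDSC (limma adjusted p = 1.77e-09 and 4.38e-09), and was not called in RB (0.10, 0.401). In RB 7 were higher and 7 lower, among them Fyn (1.80) and Lat2 (1.63) and, lower, Vav1 (-0.83), an exchange factor for Rac. In MDSC minus GFW 3 were higher and 14 lower, with Fgr (-3.67) the lowest, and in MDSC minus RB 2 and 12, with Fgr (-2.87) again lowest. The arrays labelled knockout held 2 calls, Blnk (1.19) and Fyn (0.91), both higher.

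Of 24 inhibitory phosphatases, adaptors and ITIM receptors, 21 were tested. After culture 14 were lower and 2 higher (median -1.92), with the ITIM receptors Cd300lf (-6.04 log2), Pilra (-5.30) and Pirb (-4.05) falling. Fcgr2b, itself an ITIM receptor, differed by 0.02. The ubiquitin ligase Cblb (1.23) and the phosphatase Ptpn11 (0.75) were higher. In RB 8 were higher and 9 lower. Cblb was higher by 3.04 and the SHIP-2 gene Inppl1 by 1.29, whereas Siglece (-2.56) and Cd300lf (-2.43) were lower. Inpp5d, which encodes SHIP-1, the partner of Fcgr2b, was higher in RB by 0.50 (limma adjusted p = 0.00232), lower in MDSC (-0.50, 0.00181) and not called after culture (-0.20, 0.139). Ptpn6, which encodes SHP-1, was lower after culture (-0.62), in RB (-0.45) and in MDSC (-0.77). In MDSC minus GFW 3 genes were higher and 11 lower, and in MDSC minus RB 3 and 13, with Cblb at -1.98. Arrays labelled knockout gave 1 call of 21, Cblb (0.45).

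**Figure D4:**
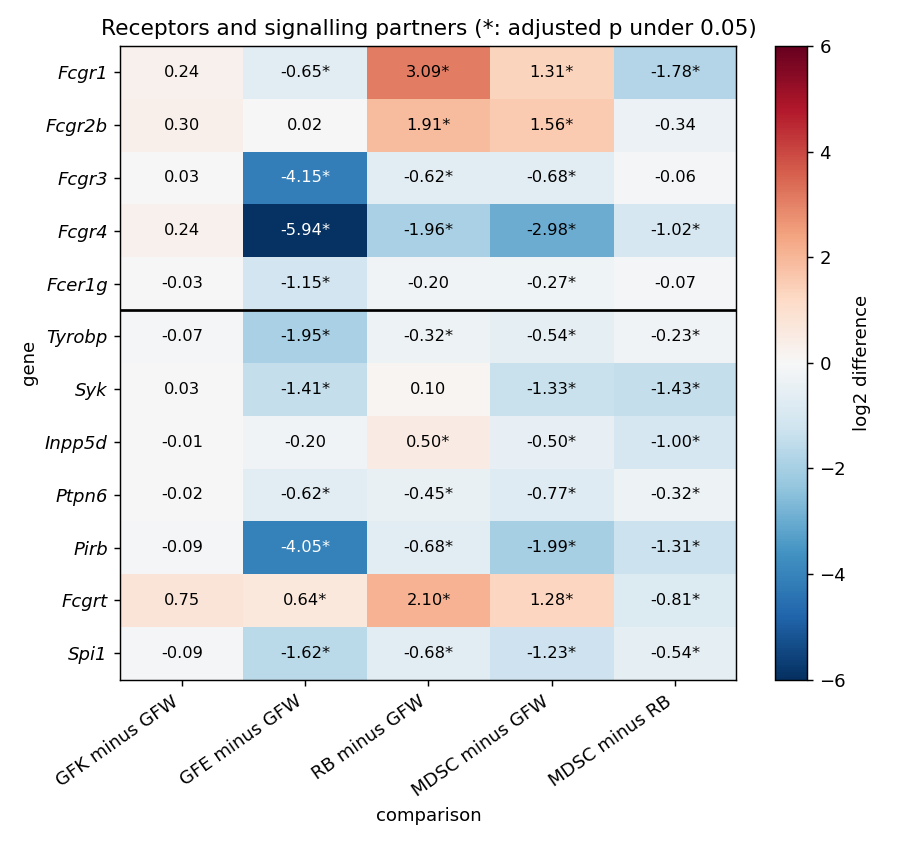
Log2 differences of the 5 genes (above the line) and of 7 partners (below it) in the 5 comparisons, with a star at an adjusted p under 0.05 and colour from -6 to 6 log2. The column GFK minus GFW holds no star, and Fcgr1, Fcgr2b and Fcgrt are higher in both RB and MDSC minus GFW.

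Other receptors that bind immunoglobulin numbered 11 tested of 14. Fcgrt, the neonatal Fc receptor that recycles IgG inside cells, stood at 6.94 on GFW and 9.04 on RB arrays (2.10 log2, SE 0.20, limma adjusted p = 3.65e-07). It was also higher in MDSC (1.28) and after culture (0.64). The low-affinity IgE receptor Fcer2a was higher after culture by at least 1.88 log2, and the Fc receptor-like gene Fcrl1 was lower after culture (-1.78), in RB (-1.19) and in MDSC (-2.28). The list held 2 higher and 4 lower after culture, 2 and 2 in RB, 2 and 7 in MDSC minus GFW, 1 and 4 in MDSC minus RB, and none on the arrays labelled knockout (Fcgrt 0.75, adjusted p = 0.0767).

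Complement and other opsonin receptors were listed with C1qa, C1qb and C1qc, which encode the complement component C1q and not receptors. Of these 16 genes 15 were tested, with 1 higher and 12 lower after culture (median -1.40). C5ar1, the C5a receptor, was lower after culture (-5.87 log2, a bound), in RB (-2.43) and in MDSC (-2.30). C3ar1, the C3a receptor, was higher by at least 4.91 after culture, 1.99 in RB and 4.10 in MDSC. Itgam fell by 3.73 and Itgax, which encodes CD11c, by 3.60 after culture. In RB 3 genes were higher and 8 lower, in MDSC minus GFW 1 and 11, in MDSC minus RB 2 and 8, and C1qb (0.84) alone was called on the arrays labelled knockout.

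A list of 24 transcription factors, cytokine receptors and signalling genes was chosen as candidates to set Fc gamma receptor levels, a role not tested here. Of these, 23 were tested for differences between groups. After culture 20 were lower and none higher (median -1.48), led by Il13ra1 (-6.24 log2, a bound) and Socs3 (-4.50). Spi1, which encodes PU.1, stood at 11.38 on GFW arrays and fell by 1.62 log2 after culture (limma adjusted p = 5.21e-10), by 0.68 in RB and by 1.23 in MDSC. The monocyte transcription factor Irf8 (1.71), the receptor Il10ra (1.30) and Cebpa (1.02) were higher in RB, and the receptors Csf3r (-2.32) and Il4ra (-1.81) and the cytokine signal inhibitor Socs3 (-1.75) lower, with 4 higher and 14 lower in all. Cebpe (2.13) and Socs1 (1.15) were higher in MDSC minus GFW and 18 genes lower, led by Csf3r (-4.53) and Il13ra1 (-3.97). MDSC minus RB gave 4 higher and 17 lower calls. With the knockout label 2 genes of the list were called higher, Irf1 (0.79) and Socs1 (0.77), and none lower.

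The genes most like each member were taken by Pearson's r over the 15 arrays, which share a normalisation and fall into 5 groups, so r follows differences between groups. Those most like Fcgr1 were Cysltr1, a leukotriene receptor (r = 0.985), the nuclear receptor Rxra (0.983), Napsa (0.981), Nrp1 (0.976) and Tifab (0.976). Fcgr2b was most like the phosphatase Dusp3 (0.978), heparanase Hpse (0.973), Trem2 (0.970), the scavenger receptor Msr1 (0.963) and Niban2 (0.960). Fcgr3 was most like Sidt2 (0.993), Mcemp1 (0.993), Tyrobp (0.993), Sgms2 (0.992) and Emilin2 (0.992). For Fcgr4 they were Gyg (0.992), the protease inhibitor Slpi (0.992), Sorl1 (0.992), Inpp5a (0.991) and Cd300ld (0.991). Fcer1g was most like the beta-glucan receptor Clec7a (0.995), Mcemp1 (0.995), Tyrobp (0.994), haptoglobin Hp (0.994) and Litaf (0.994).

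Fcgr2b, Fcgr4, Fcgr3 and Fcer1g lie in this order on chromosome 1, per RefSeq, and Fcgr1 on chromosome 3. Fcgr4 is the third annotated gene from Fcgr2b, and the pair differed in direction in RB minus GFW (-1.96 and 1.91 log2) and in MDSC minus GFW (-2.98 and 1.56). The other neighbours tested near Fcer1g were Nr1i3, Tomm40l, Apoa2, Adamts4 and B4galt3. After culture B4galt3 fell by 2.25 and Tomm40l was higher by 1.09, beside the fall of Fcer1g by 1.15. Fcrla, the third gene on the other side of Fcgr2b, was lower after culture (-0.87) and in RB (-0.63), both bounds. Near Fcgr1, the histone genes H2bc18 and H4c14 were tested, and neither was called in RB minus GFW (0.32 and -0.40, adjusted p = 0.272 and 0.0664).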

How the data were processed

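RNA of 15 samples (6 ug of total RNA each) was hybridised to single-colour Affymetrix arrays, 1 per sample. The deposited values are log2 signals that the authors made with RMA in the oligo package, per the submitters' processing notes. The sources used here give no versions and no genome build. RMA normalises quantiles across arrays, so a change shared by most genes would not show.

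The table holds 41345 probe sets. A single gene symbol goes with 23521 of them, several with 1814 and no symbol with 16010. The first kind gave 22180 genes, with the probe set of highest mean where a gene had several. A gene was tested if it lay above the 40th percentile of these probe sets (5.34 to 5.58 log2 over arrays) on at least 3 arrays. A mean under that percentile makes a difference a lower bound. Genes were matched to RefSeq (GRCm38.p6) by identifier, 23328 of 23521 probe sets, for names, neighbours and promoters.

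All 15 arrays were fitted in limma 3.58.1 (R 4.3.3), with 1 coefficient per group. The fit had 10 residual degrees of freedom and a prior worth 5.33. The 2-sided p values were adjusted over 14822 genes by the method of Benjamini and Hochberg, with calls under 0.05. The fit was tested on simulated data. Python 3.11.15, numpy 2.4.6, pandas 2.3.3 and matplotlib 3.10.9 were used for the rest. The number of arrays limits the precision, and no 2 were identical. Same-numbered replicates did not deviate together (r of -0.04 to 0.04).

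Members and lists were chosen with earlier results of these data known. Per list, comparison and direction, up to 3 called genes with the largest difference could be named, with Tyrobp, Syk, Inpp5d, Ptpn6, Pirb, Fcgrt and Spi1 in any case. Per member, the 5 genes of highest r were named (predicted models and antigen receptor segments left out), and the 3 annotated genes on either side were read. Cell markers were lists of B, plasma, NK, T, mast, neutrophil, monocyte, macrophage, dendritic, megakaryocyte and progenitor genes. Their sums on each array are of linear signals, so markers of high signal weigh most. T cell, dendritic cell and megakaryocyte sums are given over all arrays only. Ranks, sums, shifts and overlap between arrays are descriptions.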

Additional observations from a re-analysis of the deposited data

How the results depend on the processing

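Over 25 alternative settings, 385 member differences were recomputed: 370 kept direction and call, 6 lost a call, 5 gained one and 4, none called, changed sign. Fcgr2b in GFE minus GFW became -0.22 after a second quantile normalisation, -0.01 without GFE replicate 2 and -0.11 without GFW replicate 3 (-0.11 to 0.12 with single arrays left out), and Fcgr3 in MDSC minus RB became 0.0019 with each array minus its median. Fcer1g in RB minus GFW was called after a second quantile normalisation (adjusted p = 0.0497), with a filter at the 60th percentile (0.0393) and with a trended, robust prior (7.76e-04).

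Genes called in GFK minus GFW numbered 239, 74 with the 2 groups alone in the fit, 14 against a 1.5-fold difference, and 133 to 183 with single arrays left out, 133 without GFK replicate 3 and 150 without GFW replicate 3. Against a 1.5-fold difference they numbered 4233 (not 9931) for GFE minus GFW, 1925 (not 7760) for RB minus GFW, 3649 (not 9225) for MDSC minus GFW and 2457 (not 7130) for MDSC minus RB. Of the 5 receptor genes, 3 in place of 5 were then called in MDSC minus GFW and 1 in place of 2 in MDSC minus RB. These losses come from the larger difference tested. For the other changes the cause was not tested.

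Whether the replicate numbers pair the samples is not stated in the labels. With these numbers as a block, 202 genes were called for GFK minus GFW and 9907 for GFE minus GFW, and no receptor call changed.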
